A study of Mus musculus with 30 samples.

Results

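Collagens, laminins and the proteins that link them form the basement membrane, the thin sheet of matrix in which the pericytes of a brain capillary are embedded between endothelium and astrocyte endfeet. Laminins are trimers of an alpha, a beta and a gamma chain that polymerise on cell surfaces, and type IV collagen chains form a second network. Nidogens, perlecan and agrin tie both networks together, and in brain vessels endothelial cells, mural cells, fibroblasts and astrocytes each secrete some of the chains. The members described here are the genes whose symbols are those of collagen or laminin chains, together with Nid1, Nid2, Hspg2, Agrn, Fn1 and Sparc, taken from probe sets paired with exactly 1 gene and represented by the probe set of highest mean. They are 58 of the 18194 genes on the arrays. Of these, 37 exceeded a log2 signal of 4 on 3 or more of the 30 arrays and were tested, among 11243 genes tested in all.

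RNA of brain microvascular fragments from mice had been hybridised to 30 Affymetrix arrays in 8 groups, from about 100 ng of total RNA per sample. Pericytes are recruited by PDGF-B, a growth factor secreted by endothelium, and both mutant models alter its supply. The first model holds 4 pdgfbret/ret mice (ret mutants, 7 to 10 months), in which PDGF-B lacks its retention motif, and 4 pdgfbret/+ heterozygotes (ret controls, 8 to 10 months), all C57/B6/J. Their labels name no brain region, and the controls carry 1 mutant allele. The second model, on a mixed C57/SV129 background, holds Tie2Cre, R26P+/0, pdgfb-/- mice (R26P mutants), which lack mouse PDGF-B and express a human PDGF-B transgene from the Rosa 26 locus after Cre recombination in endothelium. The Tie2 promoter that drives this Cre is also known to be active in blood cells. Its controls, R26P+/0, pdgfb+/+ (R26P controls), carry the silent transgene and no Cre label. Cerebrum and cerebellum were each measured in 4 R26P mutants and 4 R26P controls, whose age is 1 year in the titles and 2 months in the age field. Wild-type mice (C57/B6/J, Notch3+/+, 2 months) gave 3 arrays of each region. The titles call the arrays of a group biological replicates.

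Before the results, 4 features of the arrays matter. The 24 ret and R26P arrays share a lowest value of 2.16 and the 6 wild-type arrays one of 2.17. They may thus have been normalized as 2 sets, so wild-type values are compared with each other alone. Pdgfb lay at 12.05 to 12.86 in R26P controls and at 4.73 to 8.01 in R26P mutants, highest in mutant 3 of both regions. The growth hormone transcript Gh, a pituitary marker, was above 8 in 3 of 4 ret mutants, 2 R26P controls and 2 R26P mutants of cerebrum, 1 R26P mutant of cerebellum and 1 wild-type cerebrum, and in none of the ret controls. Xist contradicted the sex label on the 4 ret controls and on none of the other arrays. The 8 endothelial markers averaged 12.8 to 13.7 on every array and the 4 neuronal markers 2.78 to 5.75, and markers of choroid plexus (5 genes, 9.12 to 13.7) and of microglia and macrophages (6 genes, 10.0 to 11.8) were also present on every array. All values below are log2 signals, on which a difference of 1 is a 2-fold change, listed in the order of replicate numbers. Intervals of a log2 change are at 95% confidence. A gene is said to have risen or fallen where limma gave an adjusted p below 0.05.

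In the mutants, laminin chains changed in both directions, type IV and fibrillar collagens that passed the test fell, and Col18a1 and Col9a3 were the collagens that rose. The member with the largest change was the same in all 3 comparisons, the laminin alpha chain Lama2. In ret mutants 3 members rose and 5 fell of 37 tested, and 29 did not pass. Among all genes tested 16.6% changed there (8% higher and 8.63% lower), against 21.6% of the tested members. In R26P cerebrum 3 rose and 9 fell (32.4%), where 18.7% of all genes changed (8.35% higher and 10.3% lower). In R26P cerebellum 1 rose and 11 fell (32.4%), where 15.6% of all genes changed (6.94% higher and 8.7% lower). The groups did not overlap for 10 members in the ret model, 12 in R26P cerebrum and 14 in R26P cerebellum, where this held for 23.5%, 25.9% and 22.8% of all genes. The median change of tested members in the 3 comparisons was 0.03, -0.25 and -0.14, in the same order, against 0.01, 0.01 and 0.00 over all genes. The filter lets a gene in through the group where it is high, so these shares describe the tested members alone.

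**Figure D1:**
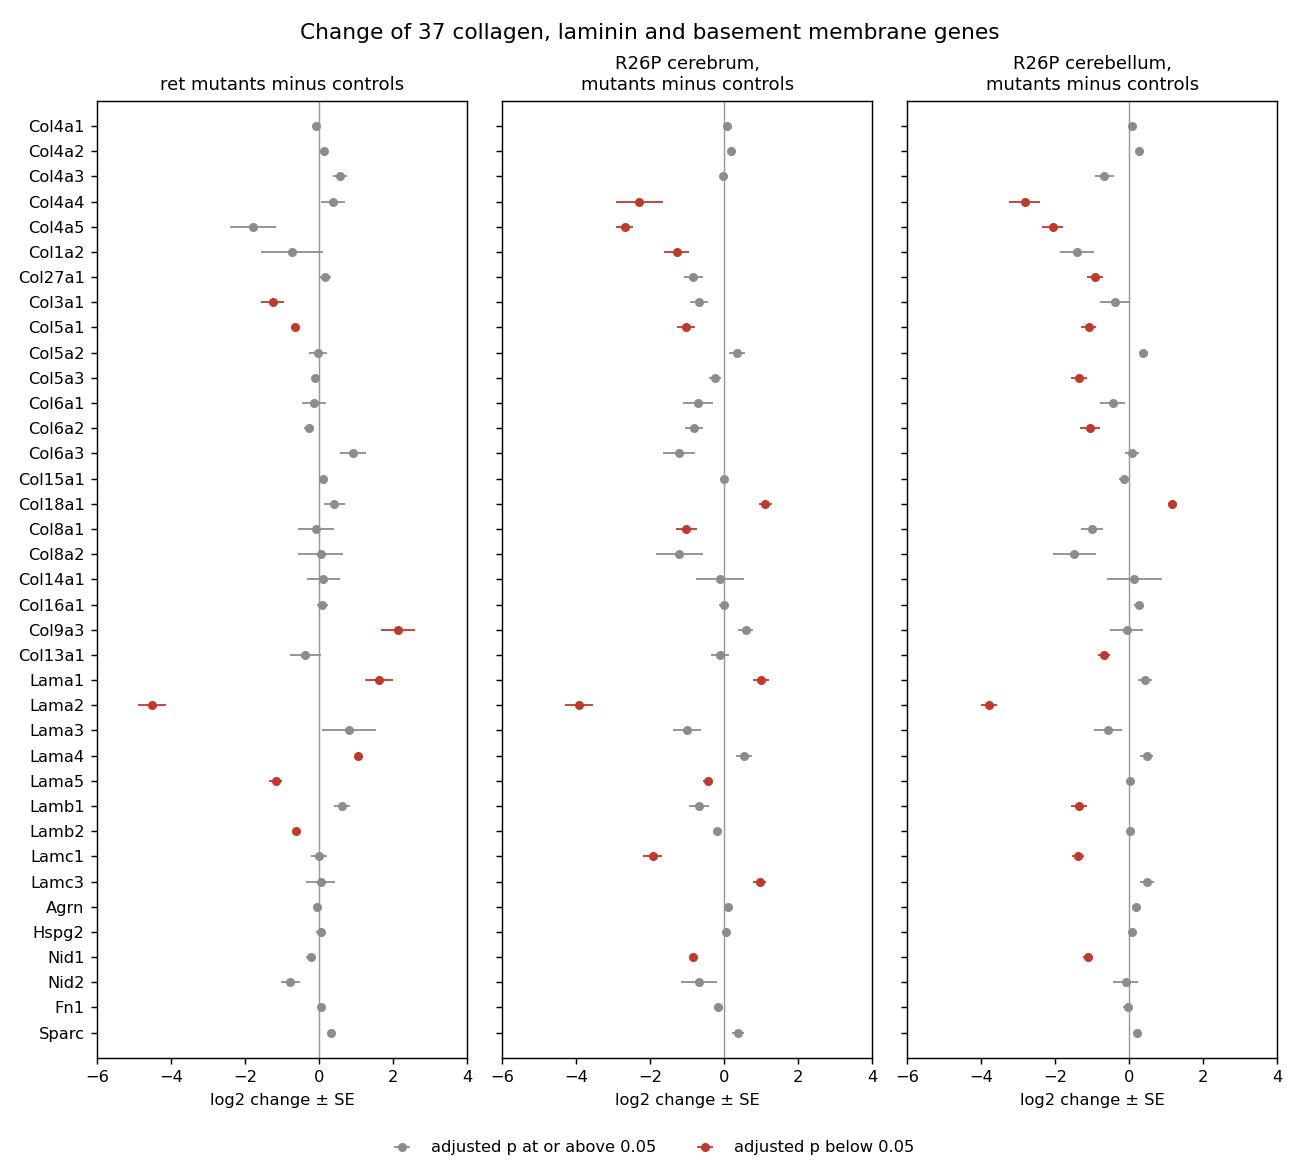
Log2 change of mutants against controls (points, with standard error) for the 37 tested members, one row per gene, with a panel for each mutant comparison. Red points passed an adjusted p of 0.05. Lama2 lies farthest left in all 3 panels, at -4.52, -3.92 and -3.79.

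Across the 3 mutant comparisons, Lama2 and Col5a1 fell in each. Another 7 members changed in 2 of them: Lama1 rose and Lama5 fell in ret mutants and R26P cerebrum, while Col4a4, Col4a5, Lamc1 and Nid1 fell and Col18a1 rose in both regions of the R26P model. A further 12 changed in 1 comparison and 16 in none. The 21 members below the filter include 19 that were never above 4 on any array. They cover the type I alpha chain Col1a1 (above 4 on 1 array), Col4a6 (on 2 arrays), the cartilage collagens Col2a1, Col10a1, Col11a1 and Col11a2, most fibril-associated and transmembrane collagens, and the epithelial laminin chain Lamb3. The tested members nearest to the limit were Col6a2, above 4 on 10 arrays, Col6a3 on 13 and Col6a1 on 19.

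The stretches upstream of the start sites are shown for Lama2, Col4a5, Col18a1 and Col5a1. These are a choice among the members that changed the same way in more than 1 mutant comparison, and their windows overlap no other RefSeq gene. Lama1, Lamc1 and Col4a4 also changed the same way in more than 1, and their windows are not shown. Each stretch shown is the 250 bases before an annotated transcription start in RefSeq (build GRCm38.p6), on the strand of the gene, and Col18a1 has 2 such starts. Capitals mark a GC box, spelt GGGCGG. They also mark the CCAAT box. The third motif is the TATA box, spelt TATAAA. Each was searched on both strands, so that its reverse complement counts too, and none contains another.
Lama2, chr10:27616943-27617192, minus strand: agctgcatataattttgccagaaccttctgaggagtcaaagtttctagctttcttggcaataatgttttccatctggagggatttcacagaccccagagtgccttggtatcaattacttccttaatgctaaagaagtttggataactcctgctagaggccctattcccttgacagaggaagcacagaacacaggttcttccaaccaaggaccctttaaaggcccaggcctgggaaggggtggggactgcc
Col4a5, chrX:141475169-141475418, plus strand: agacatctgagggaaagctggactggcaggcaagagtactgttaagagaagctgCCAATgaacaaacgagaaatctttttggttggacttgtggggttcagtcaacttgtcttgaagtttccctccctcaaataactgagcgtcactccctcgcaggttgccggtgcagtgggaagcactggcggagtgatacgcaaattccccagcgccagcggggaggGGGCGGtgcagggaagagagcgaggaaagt
Col18a1, chr10:77166531-77166780, minus strand: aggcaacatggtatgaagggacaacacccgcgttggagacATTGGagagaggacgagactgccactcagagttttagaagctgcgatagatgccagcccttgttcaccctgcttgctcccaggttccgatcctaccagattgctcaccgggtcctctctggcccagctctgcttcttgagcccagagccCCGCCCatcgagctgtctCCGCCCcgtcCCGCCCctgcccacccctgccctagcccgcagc
Col18a1, chr10:77113706-77113955, minus strand: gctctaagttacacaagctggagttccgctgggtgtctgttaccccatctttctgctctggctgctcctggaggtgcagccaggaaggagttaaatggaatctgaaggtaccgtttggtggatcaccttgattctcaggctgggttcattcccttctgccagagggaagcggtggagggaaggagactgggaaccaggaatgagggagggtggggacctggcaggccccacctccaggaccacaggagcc
Col5a1, chr2:27886175-27886424, plus strand: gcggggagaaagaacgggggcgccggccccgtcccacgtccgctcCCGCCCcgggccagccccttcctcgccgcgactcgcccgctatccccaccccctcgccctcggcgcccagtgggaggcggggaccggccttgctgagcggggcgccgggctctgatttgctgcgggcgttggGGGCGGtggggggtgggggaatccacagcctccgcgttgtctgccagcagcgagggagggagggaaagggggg
The Lama2 window and the second Col18a1 window hold none of these letters, at 47.2% and 57.6% G and C bases. The Col4a5 window holds 1 GC box and 1 CCAAT, the first Col18a1 window 3 GC boxes and 1 CCAAT on the other strand, and the Col5a1 window 2 GC boxes at 76.4% G and C. Of 32851 promoter windows of this length in the table, 32.7% held a GC box, 33.8% a CCAAT and 12.4% a TATAAA. Of the 29 windows of tested members in it, 18, 9 and 2 did. Counted by gene, 16, 9 and 2 of the 26 tested members found there had the motif in any window. The table held 42 of the 58 members.

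Lama2 encodes the laminin alpha chain best known from muscle, where its loss causes a muscular dystrophy, and found in brain on the astrocyte side of vessels. In ret controls it measured 8.03, 8.36, 8.82 and 8.13, and in ret mutants 4.28, 3.15, 3.15 and 4.68. The value 3.15 on 2 of the mutant arrays lies near the bottom of the scale. No mutant array came within 3 log2 units of a control, and the fall was 22.9-fold on the deposited values, read as a lower bound because of those 2 arrays (log2 change -4.52, SE 0.38, adjusted p = 0.00047). In R26P cerebrum controls it measured 9.05, 9.47, 8.75 and 8.81, against 5.14, 5.08, 6.04 and 4.14 in mutants. The cerebellum gave 10.18, 10.39, 9.79 and 9.94 in controls and 6.47, 6.39, 6.59 and 5.71 in mutants. Groups did not overlap in either region, with falls of 15.1-fold (adjusted p = 0.00054) and 13.8-fold (adjusted p = 7.7e-05). The mean of 9 pericyte markers was lower beside it, at 9.96 to 10.4 in ret controls and 6.23 to 7.24 in ret mutants, 10.7 to 10.9 and 6.49 to 8.09 in R26P cerebrum, and 11.4 to 11.5 and 7.58 to 9.06 in R26P cerebellum. In these bulk samples fewer cells of a type and less RNA per cell cannot be told apart.

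The remaining alpha chains gave other patterns. Lama4, the alpha chain of vascular endothelium, rose in ret mutants from 10.28, 10.33, 10.52 and 10.56 to 11.34, 11.51, 11.56 and 11.44, a 2.06-fold difference (adjusted p = 0.00048). The 2 groups were 0.78 apart at the closest. A second probe set of Lama4 varied from 2.17 to 6.62 on ret arrays and changed by 0.44 (adjusted p = 0.85), and with both averaged the change was 0.74 and did not pass (adjusted p = 0.44). R26P controls gave 10.38, 10.80, 10.60 and 9.97 in cerebrum and mutants 10.57, 11.31, 11.12 and 10.92, and 10.43, 10.75, 10.90 and 10.25 against 10.66, 11.22, 11.22 and 11.10 in cerebellum. These groups overlapped, and the changes of 0.54 and 0.47 did not pass (adjusted p = 0.12 and 0.12).

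Lama1, the alpha chain of early embryonic and meningeal basement membranes, rose in ret mutants from 5.61, 5.22, 5.77 and 5.21 to 5.93, 7.42, 7.77 and 7.09 (3.03-fold, adjusted p = 0.026). Of the 4 mutants the first lay close to the controls, 0.16 above the highest. In R26P cerebrum it rose from 4.43, 4.93, 4.35 and 4.34 to 5.48, 6.06, 5.21 and 5.30 (2.00-fold, adjusted p = 0.017). The cerebellum gave 4.47, 4.72, 4.87 and 5.33 in controls and 5.11, 5.27, 5.56 and 5.19 in mutants, overlapping groups that did not pass (adjusted p = 0.16). Leaving out any ret array but control 3 or mutant 1 ended the ret call (adjusted p up to 0.076).

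Lama5, another alpha chain of endothelial basement membranes, fell in ret mutants from 8.77, 9.09, 9.29 and 9.09 to 8.34, 7.84, 7.56 and 7.80, 2.26-fold (adjusted p = 0.0053). In R26P cerebrum it fell 1.37-fold, from 9.58, 9.42, 9.77 and 9.39 to 9.17, 9.18, 9.10 and 8.90 (adjusted p = 0.027), a call that ended without control 1 or 3 or mutant 3 or 4 (adjusted p up to 0.070). In R26P cerebellum it measured 9.32, 9.31, 9.60 and 9.24 in controls and 9.51, 9.40, 9.24 and 9.44 in mutants, and the change of 0.03 (interval -0.21 to 0.27) did not pass. The difference between the regional effects, 0.48, did not pass either (adjusted p = 1.0). Lama3, an alpha chain of epithelia, ranged widely within groups: 4.52, 7.73, 5.92 and 7.04 in ret controls and 6.31, 7.36, 6.59 and 8.20 in ret mutants. Its values were 7.61, 8.43, 7.27 and 8.15 and 7.43, 6.06, 7.48 and 6.48 in R26P cerebrum, and 8.26, 8.25, 7.05 and 8.09 and 7.75, 7.43, 7.73 and 6.44 in cerebellum. It overlapped between groups in each comparison and did not pass in any.

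Lamc1, the gamma chain shared by most laminin trimers, fell in both R26P regions and did not pass in ret mutants. R26P cerebrum controls measured 8.80, 8.95, 8.42 and 8.29 and mutants 6.43, 7.36, 6.62 and 6.32, a fall of 3.82-fold (adjusted p = 0.0021). Cerebellum gave 9.24, 8.71, 8.66 and 8.62 and 7.22, 7.61, 7.53 and 7.34, 2.62-fold (adjusted p = 0.0015). Every R26P mutant lay below every control of its region. In the ret model the values were 8.05, 8.73, 8.65 and 8.06 in controls and 8.01, 8.32, 8.67 and 8.48 in mutants (log2 change 0.00, 95% interval -0.49 to 0.49). The effect differed between the ret model and R26P cerebrum by 1.93 (SE 0.34, adjusted p = 0.012), where 3.35% of all genes differed. That test uses the arrays of both comparisons again. Among the 37 tested members Lamc1 alone passed it. Model, strain, age, region, control genotype and any difference in how samples or arrays were handled cannot be told apart in it.

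A second probe set of Lamc1 behaved differently. It lay at 7.88, 7.85, 7.91 and 4.06 in ret controls and 4.80, 6.45, 6.82 and 3.75 in ret mutants, while R26P arrays stayed between 2.93 and 3.22. It was near the bottom of the scale in the whole R26P model, and its ret change of -1.47 did not pass (adjusted p = 0.39). With the mean of both probe sets, the difference of Lamc1 between models was 0.26 and did not pass (adjusted p = 0.85). The second probe set of Lama4 likewise stayed between 2.16 and 2.20 on R26P arrays. In the ret model the second probe sets of both genes were lowest on number 4 of controls and of mutants, for Lama4 at 2.22 and 2.17. The reason was not tested.

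The other gamma chain, Lamc3, rose in R26P cerebrum from 8.13, 8.29, 7.81 and 8.05 to 8.56, 9.09, 9.09 and 9.36 (1.94-fold, adjusted p = 0.010). In cerebellum it measured 8.45, 8.67, 8.64 and 8.49 in controls and 8.77, 8.78, 9.06 and 9.56 in mutants, without overlap, and did not pass (adjusted p = 0.11). The ret arrays gave 6.58, 7.16, 7.57 and 6.96 and 7.63, 7.69, 6.02 and 7.10, which overlap.

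Of the beta chains, Lamb1 fell in R26P cerebellum, from 9.25, 9.28, 8.48 and 9.01 to 8.07, 7.53, 7.48 and 7.49 (2.57-fold, adjusted p = 0.0054). Cerebrum gave 7.48, 7.67, 7.48 and 7.48 against 6.71, 6.08, 7.11 and 7.48 (adjusted p = 0.12), and the value 7.48 there repeats exactly on 4 arrays. Ret controls measured 7.05, 7.23, 7.38 and 6.79 and ret mutants 7.15, 7.90, 7.86 and 8.00 (adjusted p = 0.088). Lamb2, the beta chain of mature vessels and of the neuromuscular junction, fell in ret mutants from 10.94, 11.24, 11.30 and 11.14 to 10.55, 10.51, 10.62 and 10.42 (1.55-fold, adjusted p = 0.0044). Its R26P values were 11.11, 10.89, 11.08 and 11.27 and 10.90, 10.82, 10.90 and 10.96 in cerebrum, and 11.14, 11.21, 11.23 and 11.19 and 11.29, 11.12, 11.07 and 11.34 in cerebellum. Its R26P groups overlapped in both regions, and neither change passed (adjusted p = 0.18 and 0.94).

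**Figure D2:**
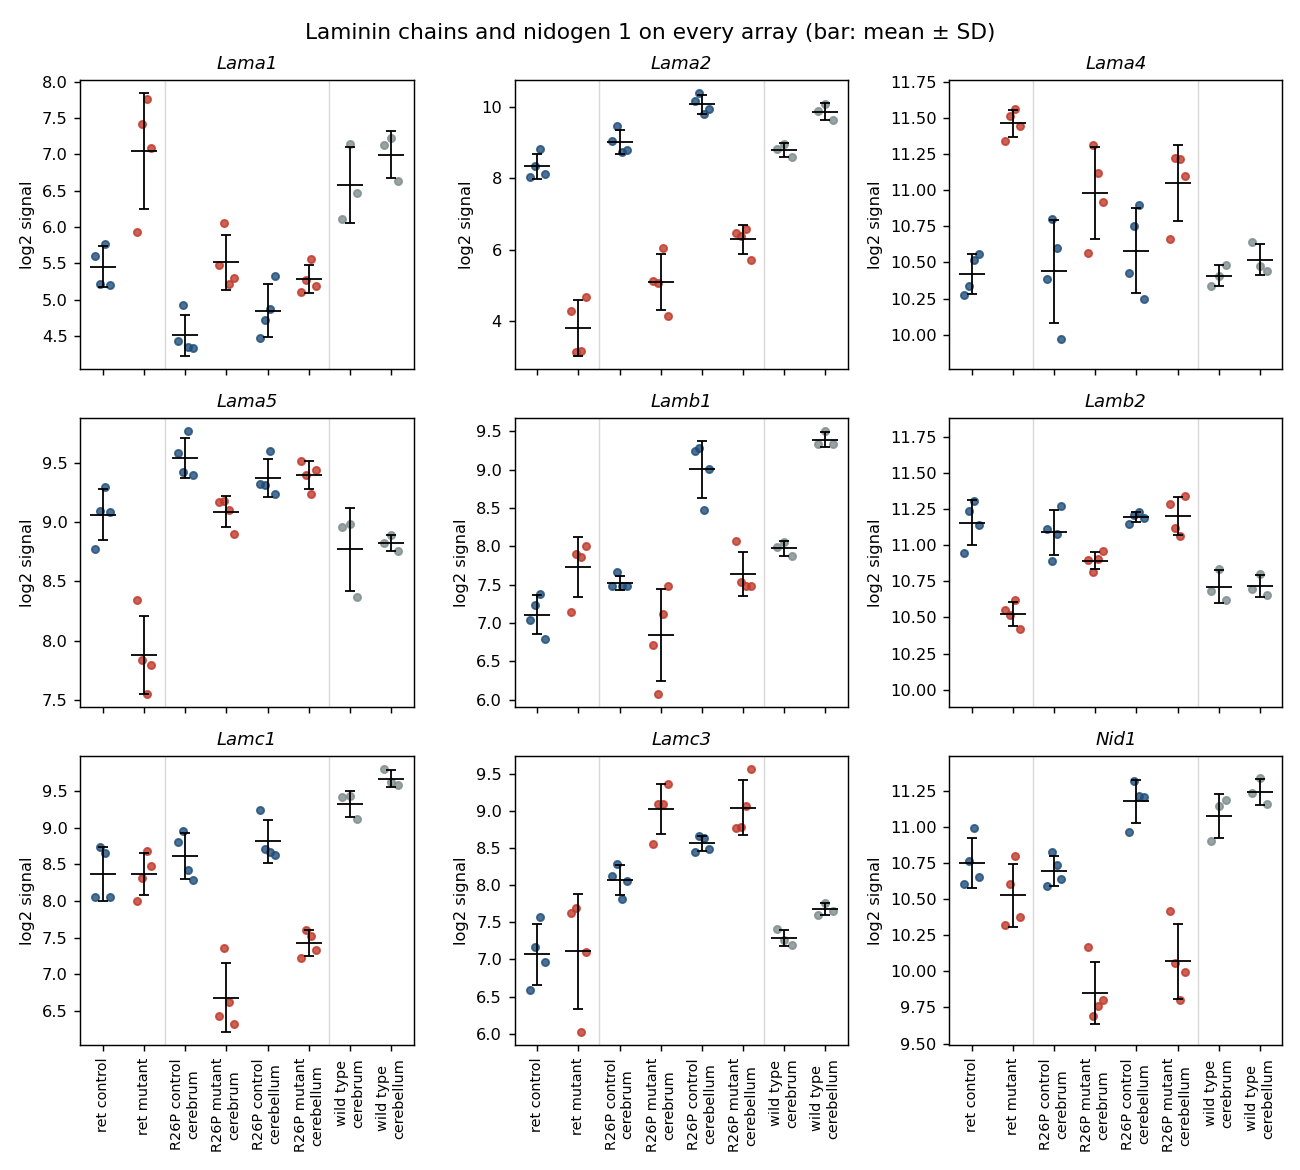
Log2 signal of 8 laminin chains and Nid1 on every array by group (points), with mean and SD (bars). Each panel has its own axis, and the wild-type groups on the right may have been normalized separately. Lama2 in mutants of both models lies below every control of the same model, whereas Lama4 is higher in ret mutants, at 11.34 to 11.56 against 10.28 to 10.56.

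Nid1 encodes nidogen 1, which binds the laminin gamma chain and type IV collagen. It fell in R26P cerebrum from 10.59, 10.82, 10.73 and 10.64 to 10.16, 9.69, 9.76 and 9.80 (1.79-fold, adjusted p = 0.0029). In cerebellum it fell from 10.97, 11.31, 11.21 and 11.21 to 10.42, 10.06, 9.80 and 9.997 (2.15-fold, adjusted p = 0.0024). Every mutant array was below every control of its region. The ret arrays overlapped, with 10.60, 10.76, 10.99 and 10.65 in controls and 10.32, 10.60, 10.80 and 10.37 in mutants (adjusted p = 0.28). A second Nid1 probe set lay at 5.77, 5.13, 3.83 and 4.20 in ret controls and 2.27 to 2.43 in ret mutants (log2 change -2.40, adjusted p = 0.0078). The same probe set stayed between 2.26 and 2.92 on R26P arrays and between 4.15 and 5.32 in wild type. It was near the bottom of the scale in the whole R26P model and could show no fall there, so only in the ret model can the calls of both probe sets be set side by side.

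The other linkers did not pass in any mutant comparison. Nid2 measured 6.44, 7.06, 7.03 and 6.94 in ret controls and 6.06, 6.55, 5.46 and 6.28 in ret mutants (log2 change -0.78, adjusted p = 0.068). R26P cerebrum gave 6.19, 6.63, 6.41 and 5.79 against 6.22, 6.30, 4.04 and 5.69, and cerebellum 6.53, 6.40, 6.12 and 5.89 against 6.59, 6.61, 5.10 and 6.27; mutant 3 was lowest in both regions. Agrn, a heparan sulfate proteoglycan of synapses and brain capillaries, stayed in a narrow band, at 12.55, 12.84, 12.56 and 12.83 in ret controls and 12.67, 12.62, 12.76 and 12.43 in ret mutants. Its R26P values were 12.28, 12.33, 12.13 and 12.13 and 12.36, 12.40, 12.29 and 12.21 in cerebrum, and 12.35, 12.25, 12.27 and 12.12 and 12.62, 12.45, 12.30 and 12.32 in cerebellum. The intervals of its 3 changes were -0.32 to 0.18, -0.09 to 0.29 and -0.05 to 0.39. Hspg2, which encodes perlecan, took exactly the same value of 6.18 on 12 of 24 arrays. Such exact repeats occurred for 12 tested members, and differences around a repeated value are not read as levels here.

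Type IV collagen gave different results by chain. Col4a1 and Col4a2, whose products form the trimer present in nearly every basement membrane, did not pass in any mutant comparison. Col4a1 measured 13.37, 13.47, 13.44 and 13.16 in ret controls and 13.30, 13.40, 13.19 and 13.19 in ret mutants. In R26P it measured 13.30, 13.29, 13.26 and 13.28 and 13.52, 13.41, 13.20 and 13.28 in cerebrum, and 13.35, 13.37, 13.38 and 13.45 and 13.61, 13.47, 13.25 and 13.53 in cerebellum. The groups overlapped in each case, and the intervals were -0.30 to 0.12, -0.13 to 0.26 and -0.13 to 0.28. Changes of Col4a2 were 0.12, 0.19 and 0.27, with adjusted p between 0.11 and 0.55. A second probe set of Col4a1 gave 0.31, 0.30 and 0.37, and the last of these passed (adjusted p = 0.036).

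Col4a4 and Col4a5 belong to the chains known from the kidney filter, where mutations of Col4a5 cause Alport syndrome, and both fell in the R26P model. Col4a5 fell in cerebrum from 8.43, 8.22, 8.08 and 8.40 to 5.47, 5.30, 6.32 and 5.27 (6.46-fold, adjusted p = 0.00034). In cerebellum it fell from 9.22, 8.90, 8.39 and 8.75 to 7.06, 7.21, 6.74 and 5.99 (4.19-fold, adjusted p = 0.0032). The groups were 1.77 and 1.19 apart at the closest. A second, dimmer probe set of Col4a5 gave -0.29 (adjusted p = 0.092) and -0.75 (adjusted p = 0.0042). Col4a4 measured 7.46, 8.07, 6.99 and 6.19 in control and 4.61, 5.43, 6.13 and 3.35 in mutant cerebrum (4.91-fold lower, adjusted p = 0.040), where the groups are separated by 0.05. Its cerebellar values were 8.92, 9.13, 8.57 and 8.48 and 6.61, 6.30, 6.26 and 4.62 (7.10-fold lower, adjusted p = 0.0044). A second, dimmer probe set of Col4a4 changed by -0.64 in cerebrum and -2.08 in cerebellum, so the size of these falls depends on the probe set. Leaving out any array but control 4 or mutant 3 ended the cerebrum call of Col4a4 (adjusted p up to 0.10), and none ended the cerebellum call.

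In the ret model Col4a5 measured 6.23, 7.22, 6.87 and 6.09 in controls and 5.24, 4.57, 3.18 and 6.27 in mutants, a log2 difference of -1.79 that did not pass (adjusted p = 0.090); mutant 4 lay among the controls. Col4a4 measured 5.57, 6.50, 6.09 and 6.16 and 6.33, 5.71, 6.60 and 7.16 there (log2 change 0.37, adjusted p = 0.46). Its second probe set changed by -0.18 in the ret model, opposite in sign. On the brightest probe set the Col4a4 effect of the 2 models differed by 2.66, which did not pass (adjusted p = 0.064). Col4a3 ranged from 4.74 to 6.57 over the 24 arrays of both models and took one repeated value, 5.13, on 4 of them; it did not pass in any mutant comparison.

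**Figure D3:**
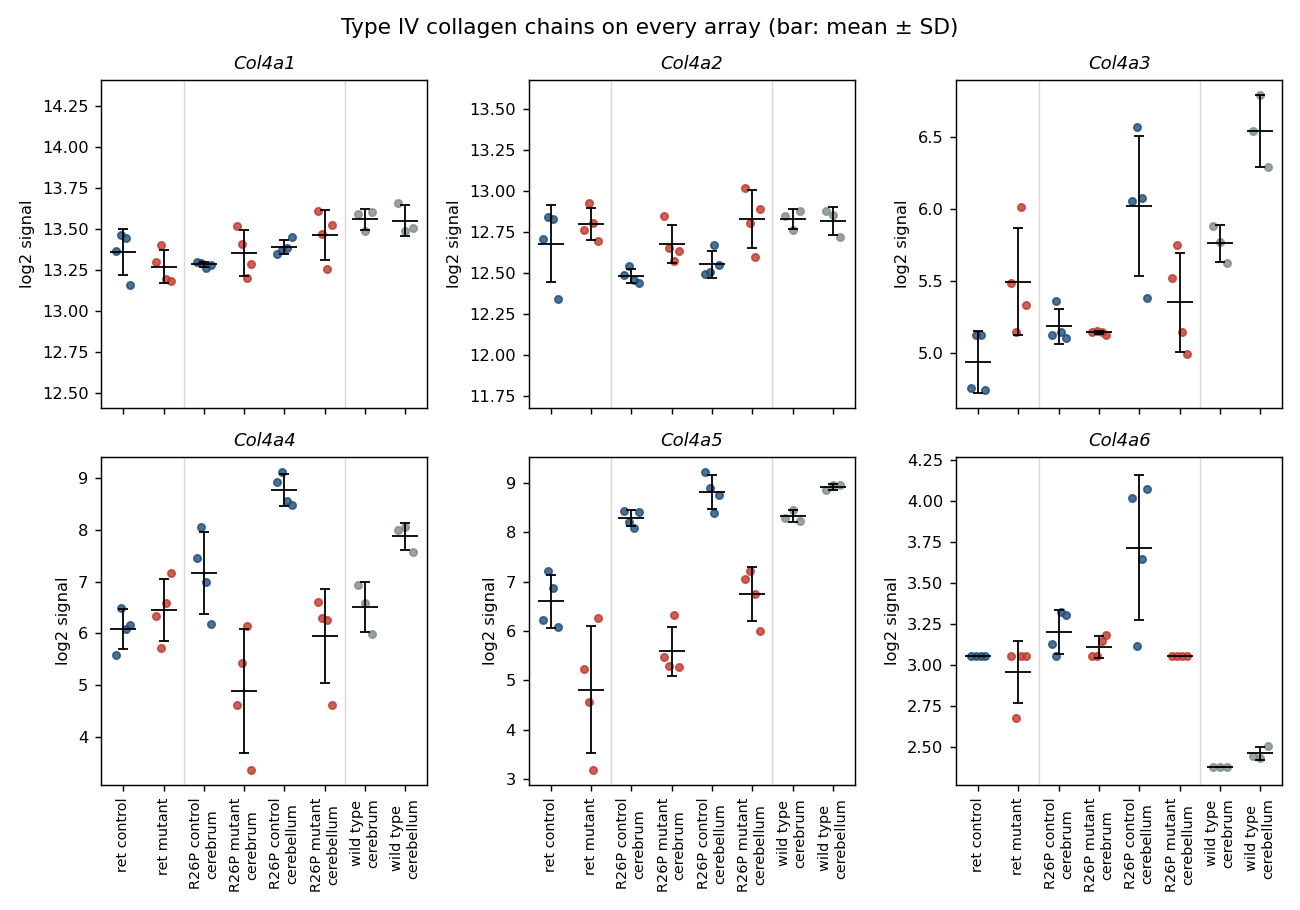
Log2 signal of the 6 type IV collagen chains on every array by group (points), with mean and SD (bars). Each panel has its own axis, and wild-type groups may have been normalized separately. Col4a1 and Col4a2 overlap between mutants and controls of the ret model, while Col4a5 lies at 5.27 to 6.32 in R26P mutant cerebrum against 8.08 to 8.43 in its controls.

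Of the multiplexins, the basement membrane collagens that carry heparan or chondroitin sulfate, Col18a1 rose in both R26P regions. It encodes the collagen from which endostatin is cleaved. Cerebrum gave 11.20, 10.45, 10.82 and 10.68 in controls and 12.09, 11.64, 11.79 and 12.06 in mutants (2.16-fold higher, adjusted p = 0.0050). Cerebellum gave 11.09, 10.75, 10.61 and 10.62 and 12.10, 11.93, 11.86 and 11.85 (2.25-fold, adjusted p = 0.0010). No mutant overlapped a control of its region, and a second probe set rose by 1.17 and 1.36 (adjusted p = 0.026 and 0.0047). In the ret model the groups overlapped, at 10.01, 10.57, 10.43 and 9.77 and 11.23, 10.29, 10.09 and 10.80 (adjusted p = 0.36). Col15a1 took its repeated value of 4.54 on 19 of 24 arrays and is not read as a level.

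Fibrillar collagens are made mainly by fibroblasts, and Col1a2 and Col3a1 encode chains of the most abundant of them. Col3a1 fell in ret mutants, from 10.10, 10.04, 10.11 and 8.98 to 7.99, 8.97, 8.52 and 8.75 (2.38-fold, adjusted p = 0.032). The groups were 0.02 apart at the closest, and leaving out control 1, 2 or 3 or mutant 1 or 3 ended the call (adjusted p up to 0.087). R26P cerebrum gave 9.72, 9.65, 9.12 and 9.63 and 9.19, 8.60, 9.30 and 8.31, and cerebellum 9.37, 9.93, 9.16 and 9.27 and 9.19, 9.73, 9.46 and 7.82, neither of which passed (adjusted p = 0.092 and 0.55).

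Col1a2 fell in R26P cerebrum, from 9.94, 10.84, 10.25 and 9.88 to 9.14, 8.91, 9.58 and 8.12 (2.44-fold, adjusted p = 0.034), a call that ended without any one array but mutant 3 or 4 (adjusted p up to 0.079). In R26P cerebellum it measured 10.08, 11.14, 10.45 and 11.41 in controls and 9.72, 9.84, 9.80 and 8.08 in mutants, without overlap (log2 change -1.41, adjusted p = 0.078). Ret controls gave 8.97, 9.45, 9.64 and 8.59 and ret mutants 7.93, 7.59, 7.06 and 11.10 (adjusted p = 0.58). Of the ret mutants, 3 lay below every control and mutant 4 above every control. On that array the fibroblast marker mean was also highest of its group, at 7.66 against 5.95 to 6.31 on the other 3. Every other marker list but the endothelial was highest there too, such as choroid plexus at 11.84, smooth muscle at 8.96 and neurons at 5.75. The endothelial mean was lowest there, at 13.28. The part of any cell type in the high Col1a2 value was not tested.

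Col5a1, a chain of type V collagen, which starts the assembly of collagen fibrils, fell in all 3 comparisons from a low level. Ret controls measured 4.82, 5.00, 4.72 and 5.07 and ret mutants 4.35, 4.22, 4.18 and 4.23 (1.58-fold, adjusted p = 0.0036). In R26P cerebrum the values were 5.85, 5.75, 5.63 and 4.72 and 4.72, 4.39, 4.34 and 4.38 (2.04-fold, adjusted p = 0.025), and control 4 equalled mutant 1 at 4.72. The cerebellum gave 5.65, 5.96, 5.48 and 5.11 and 4.49, 4.81, 4.35 and 4.18 (2.13-fold, adjusted p = 0.012). The value 4.72 repeats exactly on 3 of 24 arrays. Leaving out any array but that control or that mutant ended the cerebrum call (adjusted p up to 0.068). A second probe set of Col5a1 changed less, by -0.12, -0.22 and -0.43 in the 3 comparisons. It too took repeated values, 4.23 and 4.29, so the size of the Col5a1 fall depends on the probe set.

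Its partner chain Col5a2 did not pass, at 10.44, 10.26, 10.46 and 9.42 in ret controls and 9.84, 10.11, 10.01 and 10.45 in ret mutants. R26P cerebrum gave 10.31, 10.73, 10.50 and 10.12 and 10.88, 10.22, 10.75 and 11.21, and cerebellum 10.42, 10.82, 10.61 and 10.30 and 10.97, 10.78, 10.92 and 11.003. In R26P its log2 changes were 0.35 and 0.38, whereas a second probe set of the gene gave -0.37 and -0.05, so its direction depends on the probe set. Col5a3 fell in R26P cerebellum from 5.80, 6.25, 5.20 and 5.36 to 4.29 on all 4 mutants (2.58-fold, adjusted p = 0.0054). That value repeats exactly on 11 of 24 arrays, so the size of the fall rests on a repeated value. Col27a1, a fibrillar collagen of cartilage, fell in R26P cerebellum from 7.91, 7.75, 8.10 and 8.59 to 7.09, 6.71, 7.35 and 7.50 (1.90-fold, adjusted p = 0.032), a call that ended without any one array but control 2 or mutant 4 (adjusted p up to 0.074). It missed the threshold in cerebrum (log2 change -0.84, adjusted p = 0.057).

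Type VI collagen forms beaded microfibrils next to basement membranes. Col6a1 measured 5.45, 4.64, 3.80 and 4.29 in control and 3.66, 3.18, 4.63 and 3.87 in mutant cerebrum, and 6.11, 5.13, 5.18 and 5.20 and 5.19, 5.66, 4.47 and 4.52 in cerebellum. On ret arrays it lay between 2.79 and 4.24, and it did not pass in any mutant comparison. Col6a2 fell in R26P cerebellum from 4.53, 4.00, 4.10 and 4.22 to 3.77, 3.50, 2.69 and 2.69 (2.07-fold, adjusted p = 0.037), close to the bottom of the scale. The value 2.69 repeats exactly on 7 of 24 arrays, so the size of this fall rests on a repeated value, and leaving out any array but mutant 1 ended the call (adjusted p up to 0.097). Col6a3 ran the other way in the ret model, at 3.85, 3.90, 3.89 and 3.49 in controls and 4.02, 4.05, 5.12 and 5.57 in mutants, without overlap and without passing (adjusted p = 0.13). In R26P cerebrum it measured 5.72, 4.92, 5.91 and 4.47 and 3.90, 4.89, 3.17 and 4.16 (log2 change -1.22, adjusted p = 0.086). The difference of the Col6a3 effect between models, 2.13, did not pass (adjusted p = 0.062).

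The network-forming chains Col8a1 and Col8a2 build the lattice of type VIII collagen in vessel walls and cornea. Col8a1 fell in R26P cerebrum, where controls measured 10.63, 11.63, 10.98 and 11.28 and mutants 10.30, 9.60, 10.67 and 9.86 (2.03-fold, adjusted p = 0.041) with overlap of 1 mutant and 1 control. Leaving out any array but control 1 or mutant 3 ended that call (adjusted p up to 0.097). In cerebellum it measured 12.27, 12.45, 11.33 and 11.84 and 11.35, 11.18, 10.87 and 10.47 (log2 change -1.01, adjusted p = 0.051). Col8a2 measured 5.32, 7.57, 5.81 and 6.85 and 4.78, 4.29, 6.68 and 4.95 in cerebrum, and 9.38, 9.25, 6.97 and 8.21 and 7.51, 7.05, 7.40 and 5.94 in cerebellum. Its arrays spread over more than 2 log2 units within both control groups, and the changes of -1.21 and -1.48 did not pass (adjusted p = 0.22 and 0.13). In ret mutants array 4 was highest for both genes, at 11.34 and 6.32.

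Among fibril-associated collagens, Col9a3, a chain of type IX collagen of cartilage and the eye, rose in ret mutants from 6.53, 7.70, 7.47 and 5.88 to 8.64, 9.004, 8.60 and 9.86 (4.39-fold, adjusted p = 0.018). A second probe set rose by 1.49 (adjusted p = 0.018), and without control 1 the first one missed the threshold (adjusted p = 0.055). In R26P cerebrum Col9a3 measured 9.40, 10.02, 9.40 and 9.76 and 10.29, 10.51, 10.31 and 9.79, and in cerebellum 12.001, 11.15, 9.90 and 10.47 and 11.04, 11.25, 10.61 and 10.32, with neither passing (adjusted p = 0.078 and 0.92). All R26P controls lay above all ret controls, on arrays that share a lowest value of 2.16. Strain, age, control genotype and the region named also differ between these controls. The difference between effects did not pass (adjusted p = 0.10). Col14a1 and Col16a1 did not pass in any mutant comparison. Col13a1, a transmembrane collagen, fell in R26P cerebellum from 6.97, 6.66, 6.40 and 6.70 to 6.32, 6.02, 5.76 and 5.91 (1.60-fold, adjusted p = 0.026), a call that ended without any one array but control 3 or mutant 1 (adjusted p up to 0.067). In cerebrum it measured 5.59, 5.59, 5.72 and 5.46 and 4.86, 5.39, 6.21 and 5.43 (adjusted p = 0.77), and in the ret model 6.78, 6.40, 6.73 and 6.81 and 6.76, 6.44, 5.00 and 7.02 (adjusted p = 0.56).

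Fn1, which encodes fibronectin, and Sparc, a collagen-binding protein secreted by endothelium, did not pass in any mutant comparison. Fn1 measured 14.86, 14.95, 14.89 and 14.93 in ret controls and 14.99, 14.74, 15.13 and 14.98 in ret mutants. It measured 14.48, 14.78, 14.63 and 14.55 and 14.21, 14.27, 14.68 and 14.64 in R26P cerebrum, and 14.63, 14.71, 14.77 and 14.57 and 14.62, 14.34, 14.68 and 14.87 in cerebellum. Groups overlapped throughout, near the top of the scale. Sparc changed by 0.33, 0.37 and 0.22 (adjusted p = 0.064, 0.13 and 0.23), while a second probe set gave 0.45, -0.18 and -0.27, opposite in sign in the R26P model.

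Cerebellum and cerebrum were compared within each genotype, on arrays that also enter the R26P comparisons above. In wild type 3 members were higher in cerebellum and none lower, of 37, where 2.12% of all genes differed (1.78% higher and 0.338% lower). In R26P controls 4 were higher and 1 lower, where 1.17% of all genes differed (0.889% higher and 0.285% lower). R26P mutants gave 0 calls among members and 0% of all genes, with 11 members at an unadjusted p below 0.05 and a smallest adjusted p of 0.51. The regions did not overlap for 17 members in wild type, 11 in R26P controls and 4 in R26P mutants, against 21.7%, 8.12% and 2.77% of all genes. Lamb1 was higher in cerebellum of wild type (9.34, 9.51 and 9.33 against 8.00, 8.06 and 7.87, adjusted p = 0.0050) and of R26P controls (log2 change 1.48, adjusted p = 0.010). Lama2 was higher there too, at 9.88, 10.10 and 9.63 against 8.83, 8.97 and 8.60 in wild type (2.09-fold, adjusted p = 0.034) and by 2.08-fold in R26P controls (adjusted p = 0.049). Col4a5 was higher in wild-type cerebellum by 0.60 (adjusted p = 0.031). In R26P controls Col13a1 and Col5a3 were higher in cerebellum by 1.09 and 1.26, and Col6a3 was lower by 1.90 on the log2 scale (adjusted p = 0.0097, 0.047 and 0.046). In cerebrum of these controls Col5a3 held its repeated value of 4.29 on 2 arrays, and Lamb1 its repeated value of 7.48 on 3. The sizes of their regional differences thus rest on repeated values. With any 1 wild-type number left out 0 of the wild-type calls held. The R26P controls kept 0 to 2, with Lama2 held only without number 2 and Lamb1 and Col13a1 only without number 3.

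Arrays of the same number went together across regions. With the replicate number as a block, 4 members differed in wild type (1.2% of all genes), 8 in R26P controls (4.22%) and 0 in R26P mutants (0%). In wild type Col4a4, higher in cerebellum, and Col6a3, lower there, then passed and Col4a5 did not (adjusted p = 0.044, 0.044 and 0.059). In R26P controls Col4a4, Col6a2 and Nid1 were added, by 1.60, 1.12 and 0.48 (adjusted p = 0.022, 0.032 and 0.026). Taken pair by pair, Lama2 was higher in cerebellum in every pair, by 1.03 to 1.12 in wild type, 0.93 to 1.14 in R26P controls and 0.55 to 1.57 in R26P mutants. Lamb1 differed by 1.35 to 1.46, 1.00 to 1.77 and 0.01 to 1.45, and Col4a4 by 1.07 to 1.60, 1.06 to 2.30 and 0.13 to 2.00. The smallest mutant difference of Col4a4 came from pair 3, the pair in which the cerebellar array held Gh. Of the 4 mutant pairs it also had the smallest differences of Lama2 and Col4a5, 0.55 and 0.43, and whether its region labels are right cannot be settled here. Without that pair the R26P mutants still gave 0 regional calls among members.

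**Figure D4:**
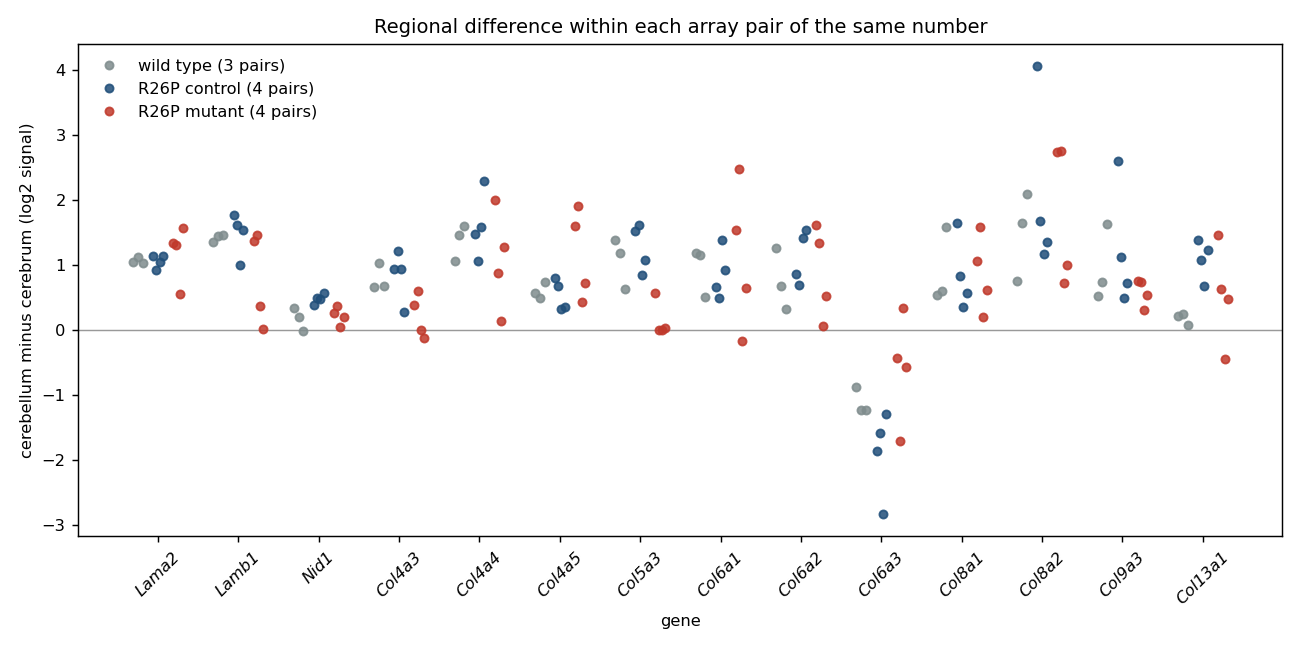
Cerebellum minus cerebrum on the log2 scale within each same-numbered pair of arrays, for 14 members, in wild type (3 pairs), R26P controls (4 pairs) and R26P mutants (4 pairs). Lama2 lies above 0 in every pair, and Col6a3 lies below 0 in wild type and R26P controls, at -1.24 to -0.88 and -2.84 to -1.30.

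The R26P effect itself was compared between regions. None of the 37 members passed, with 0.116% of all genes past the threshold, 4 members at an unadjusted p below 0.05 and a smallest adjusted p of 0.38, for Col5a3. With the replicate number as a block the count was again 0, where 0.258% of all genes passed. It stayed at 0 with either array of mutant pair 3 left out. Falls of Lama2 in the 2 regions, -3.92 and -3.79, differed by 0.13 (interval -0.84 to 1.10).

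The genes that assemble, crosslink or bind the matrix are given from 3 lists. Of 19 tested enzymes and chaperones of collagen assembly, 3 rose and 1 fell in ret mutants, 2 rose and 7 fell in R26P cerebrum, and 1 rose and 5 fell in R26P cerebellum. These are 21.1%, 47.4% and 31.6% of the list, where 16.6%, 18.7% and 15.6% of all genes changed. The ret fall was P4ha2, a collagen prolyl hydroxylase, by 2.03 (adjusted p = 0.0057). Pxdn, peroxidasin, which makes the sulfilimine crosslinks of type IV collagen, rose in each comparison, by 1.05, 0.96 and 0.43 (adjusted p = 0.011, 0.020 and 0.047). In R26P the largest falls were those of Pcolce2 and Pcolce, enhancers of procollagen processing, by 2.27 and 1.61 in cerebrum and 1.73 and 1.34 in cerebellum. P3h2, a prolyl hydroxylase of basement membrane collagen, fell by 1.34 and 1.31.

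Of 20 tested matrix receptors, 1 rose and 4 fell in ret mutants, and 1 rose and 8 fell in each R26P region, or 25%, 45% and 45% of the list beside the same shares of all genes. Itga7, the integrin alpha chain that binds laminin in muscle, fell 7.20-fold in ret mutants, 7.13-fold in R26P cerebrum and 5.14-fold in R26P cerebellum (adjusted p = 0.012, 0.00075 and 0.0025). Itga6, another laminin receptor chain, fell by 1.24, 0.82 and 0.70, and Itga1, a collagen receptor chain, rose by 0.66, 0.56 and 0.41. Sdc2, Itga8 and the collagen receptor Ddr2 fell in R26P cerebrum by 2.29, 2.18 and 2.04, and in cerebellum by 2.16, 1.59 and 2.02.

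Of 19 other matrix genes tested, 3 rose and 4 fell in ret mutants, 0 rose and 3 fell in R26P cerebrum, and 0 rose and 4 fell in R26P cerebellum. These are 36.8%, 15.8% and 21.1% of the list, below the 18.7% of all genes in R26P cerebrum. Vtn, vitronectin, a pericyte product in brain, fell 9.86-, 7.10- and 5.32-fold. Egflam, pikachurin, a dystroglycan ligand, fell by 1.52, 1.92 and 1.98 on the log2 scale. Smoc2, a secreted calcium-binding matrix protein, rose by 4.22 in ret mutants (adjusted p = 0.0037), and its effect differed between the models by 3.35 (adjusted p = 0.034). Median changes of the 3 lists in the 3 comparisons, in the order used above, were 0.08, -0.45 and -0.46 for assembly, -0.35, -0.75 and -0.55 for receptors, and -0.24, -0.30 and -0.10 for other matrix genes, against 0.01, 0.01 and 0.00 over all genes.

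Markers of several cell types moved with these members. The pericyte list fell in 8 of 8 tested genes in each mutant comparison. Of 9 tested fibroblast markers, 2 fell in ret mutants and 6 in each R26P region, with a mean over 10 genes of 6.97 to 8.03 and 5.95 to 7.66 in ret controls and mutants, 8.21 to 9.03 and 6.89 to 7.82 in R26P cerebrum, and 8.95 to 9.81 and 7.67 to 8.16 in R26P cerebellum. Smooth muscle markers fell in 0 of 7, 7 of 7 and 2 of 7, and astrocyte markers in 5 of 6, 6 of 6 and 5 of 6. Of the 8 endothelial markers 1 fell in ret mutants, 1 rose and 1 fell in R26P cerebrum, and 1 rose in R26P cerebellum. The part of these shifts in the changes of collagen and laminin genes was not tested. Choroid plexus markers fell in 0, 1 and 0 of 5, and of 6 microglia and macrophage markers Lyz2 rose in ret mutants and Mrc1 fell in both R26P regions. Of 2 tested leukocyte markers, Ptprc and Plac8 rose in ret mutants and Plac8 in R26P cerebrum, and the mean of 6 leukocyte genes was 3.65 to 4.35 in ret controls and 4.82 to 5.27 in ret mutants. Of 3 tested neuronal markers, Map2 fell in both R26P regions, by 2.73 and 2.92, while Snap25 and Syt1 passed in neither. The 1 tested oligodendrocyte marker, Mbp, fell in ret mutants by 0.89. In cerebellum against cerebrum, 4 of 8 pericyte markers were higher in wild type and 6 of 8 in R26P controls, beside the higher Lama2. Of 9 tested fibroblast markers Lum and Dcn, and of 5 choroid plexus markers Clic6, were also higher in wild-type cerebellum, by 1.82, 1.18 and 1.16. Lum, Dcn and Clic6 did not pass in R26P controls. The astrocyte marker Aqp4 was higher in cerebellum of both genotypes, while Slc1a2, Slc1a3 and Mlc1 were lower there in R26P controls. The part of these markers in the regional differences was not tested.

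Wild-type levels, not compared with those of the other arrays, are given by range for the genes above. In cerebrum Col4a1 lay at 13.49 to 13.60, Lamc1 at 9.11 to 9.42, Nid1 at 10.90 to 11.18, Lama4 at 10.33 to 10.48, Lama5 at 8.37 to 8.99 and Fn1 at 14.14 to 14.24. In cerebellum the same genes lay at 13.49 to 13.66, 9.58 to 9.79, 11.16 to 11.34, 10.44 to 10.64, 8.76 to 8.89 and 14.08 to 14.24. None of these 6 differed between the wild-type regions past the threshold (smallest adjusted p = 0.22).

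**Figure D5:**
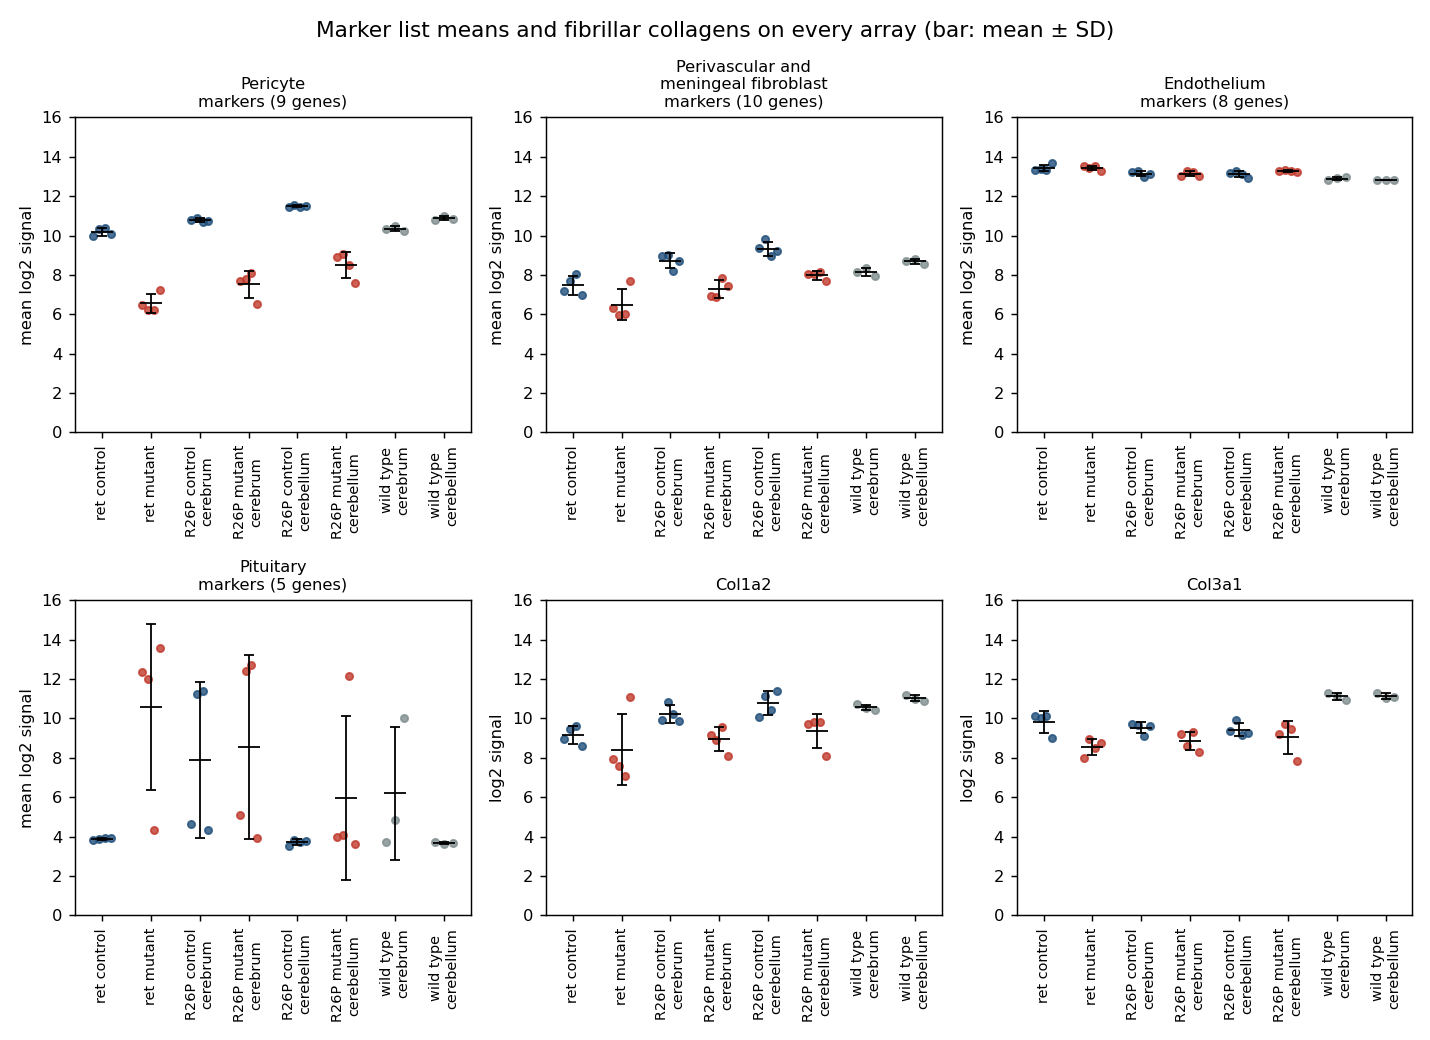
Mean log2 signal of the pericyte, fibroblast, endothelial and pituitary marker lists, and log2 signal of Col1a2 and Col3a1, on every array by group (points), with mean and SD (bars). Pericyte means of mutants lie below those of every control, endothelial means stay between 12.8 and 13.7, and pituitary means split the arrays within 5 groups.

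Pituitary transcripts went with genotype in the ret comparison, where 3 of 4 mutants and no control had Gh above 8. The fit on arrays with Gh below 8 was added after the values were seen. With the pituitary mean of Gh, Prl and Pomc as a covariate 8 members passed in ret mutants, 4 of them among the 8 above: Lama2, Lama4, Lama5 and Col5a1. On arrays with Gh below 8 alone, which leaves ret mutant 3 against 4 controls and assumes that a lone array varies like its controls, Lama2, Lama4, Lama5 and Lama1 kept their calls, and Lama2 was lower by 5.18. In R26P cerebrum the same restriction leaves 2 arrays against 2, where Lama2 and Col4a5 passed, with log2 changes of -4.29 and -3.04 (adjusted p = 0.048 and 0.026), and no other member did.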

How the data were processed

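The deposited values are log2 signals that the authors made with GCRMA 2.6.0 under R 2.4.1, per the submitters' processing notes. GCRMA corrects background by probe sequence and applies quantile normalization. The values were used as deposited. The 24 ret and R26P arrays share a lowest value of 2.16 and the 6 wild-type arrays one of 2.17, so the 2 sets were not compared. Each gene took its probe set of highest mean, from 34958 probe sets paired with 1 gene, and was tested if above 4 in at least 3 arrays. An exact repeat of a probe set's value across arrays is already in the deposited values. Groups came from the labels. Tests used limma 3.58.1 in R 4.3.3 (lmFit, eBayes) on the arrays compared, two-sided, with Benjamini-Hochberg adjustment over 11243 genes, threshold 0.05, without a block. Same-numbered arrays correlated across regions (0.344 to 0.840 after removal of group means, each highest with its own number), so blocked values stand beside the region tests. Between mutants and controls they did not pair. The code was tested on simulated data. The members and gene lists were chosen with earlier results of these data known. Values on every array are given for members that passed in a mutant comparison without overlap, those with the 10 largest changes per comparison and the brightest of each class. Second probe sets, chosen after their values were seen, were tested among 18851 probe sets. Arrays carry no read depth, and their number limits the precision.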

Additional observations from a re-analysis of the deposited data

Results flagged for a closer look

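In 222 sets of 4 arrays, 1 per tested member and group, 28 held an array whose gap to the nearest of the other 3, divided by the group's range, exceeded Dixon's 95% critical value. For normally distributed values chance exceeds it in about 1 in 20 groups, and the rate for values that repeat exactly, as many do here, was not computed. R26P mutant 4 was low for Col14a1 in both regions, at 7.12 in cerebrum (others 9.59 to 9.91) and 6.71 in cerebellum (others 9.81 to 9.99), and for Col1a2 in cerebellum, at 8.08 (others 9.72 to 9.84). A second Col14a1 probe set also had its lowest R26P values there, 6.02 and 5.95.

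Fibrillar genes gave 5 further cases. Col3a1 was low in ret control 4, at 8.98 (others 10.04 to 10.11), and in R26P control cerebrum 3, at 9.12 (others 9.63 to 9.72). Col27a1 was high in ret mutant 4, at 7.93 (others 7.29 to 7.39). Col5a1 was high in R26P mutant cerebrum 1, at 4.72 (others 4.34 to 4.39), and Col5a3 low there, at 3.73 (others 4.26 to 4.29).

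Among laminins, Lamb1 was low in ret mutant 1, at 7.15 (others 7.86 to 8.00), and high in R26P mutant cerebellum 1, at 8.07 (others 7.48 to 7.53). Lamc1 was high in R26P control cerebellum 1, at 9.24 (others 8.62 to 8.71). Lama1 was high in R26P control cerebrum 2, at 4.93 (others 4.34 to 4.43), and Lama3 low in R26P control cerebellum 3, at 7.05 (others 8.09 to 8.26). Sparc was low in ret mutant 4, at 14.04 (others 14.37 to 14.43).

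Type IV and VI collagens gave 4 cases. Col4a3 stood at 5.36 in R26P control cerebrum 2 (others 5.10 to 5.15). Col6a1 stood at 6.11 in R26P control cerebellum 1 (others 5.13 to 5.20). Col6a3 stood at 3.49 in ret control 4 (others 3.85 to 3.90). Col6a2 stood at 2.63 in R26P mutant cerebrum 3, with the others at the bottom of the scale.

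The other 10 cases lie beside a value that repeats exactly or nearly so in the group, where a small step stands out. These are Col15a1 at 4.59 in R26P control cerebrum 3, 4.54 in R26P control cerebellum 1 and 3.97 in R26P mutant cerebellum 4, and Col16a1 at 7.72 in ret mutant 1 and 7.93 in R26P mutant cerebellum 2. Col5a3 at 4.28 in ret control 4 and Lamb1 at 7.67 in R26P control cerebrum 2 belong with them, as do Hspg2 at 6.50 in ret control 4, 5.89 in R26P control cerebellum 2 and 6.21 in R26P mutant cerebellum 1.

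The mutant effect on Lamc1 differed between the ret model and R26P cerebrum by 1.93 on the log2 scale (limma interaction term, adjusted p = 0.012). With the mean of both Lamc1 probe sets the difference did not pass. Model, strain, age, region, control genotype and any difference in how samples or arrays were handled cannot be told apart in this term. All 4 R26P mutants were below all controls in cerebrum, and the ret groups overlapped.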

How the results depend on the processing

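No result reversed. Of the named members' alternatives 523 stayed on their side of the threshold and 141 no longer passed. Members changed were 8 in ret mutants, with 5 without the expression filter, 5 with the replicate block and 5 to 11 with each array left out (5 without ret control 1, 11 without ret mutant 4). In R26P cerebrum 12 changed, with 6 without the filter, 2 on arrays with Gh below 8 and 7 to 11 with each array left out (7 without control 3). Over the settings other than leaving out 1 array, the cerebrum count ran from 2 to 16. The cerebellar count of 12 ranged from 9 to 14 over all alternatives. For wild-type regions 3 became 1 without the filter, 8 with an intensity trend and robust prior, and 0 without any replicate number. For R26P control regions 5 became 1 without the filter, 3 with a mean above 6, 3 with probe sets of a gene averaged, 8 with the replicate block and 0 to 2 without a number (0 without 1 or 4, 1 without 2, 2 without 3). The R26P mutant regions and the regional difference of effects stayed at 0. The model difference of 1 became up to 4 with an array left out: 4 without ret mutant 1 or R26P control 4, and 2 without any 1 of the R26P mutants of cerebrum. The cause of these shifts was not tested. More genes are tested without the filter, and fewer arrays enter a fit with an array left out.

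Calls of Lama2 and Lama5 in ret mutants, Lama2 and Col4a5 in R26P cerebrum, and Lama2, Lamb1, Lamc1, Nid1, Col4a4, Col4a5, Col5a1, Col5a3 and Col18a1 in R26P cerebellum held in every alternative in which the gene was tested. Lama4 in ret mutants lost its call only with its probe sets averaged (log2 change 0.74, adjusted p = 0.44), since a second probe set varied from 2.17 to 6.62 on ret arrays. In ret mutants Col3a1, Col9a3 and Lama1 lost theirs with the replicate block (adjusted p = 0.089, 0.079 and 0.064), and in R26P cerebrum Col8a1 and Lama5 did (adjusted p = 0.12 and 0.059). Mutant and control arrays of one number share only that number.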
